A study of Mus musculus with 15 samples.

Results

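The 10 genes described here are expressed by fat cells of the brown or the white type, and they were followed through development of the mouse secondary palate. They are Pparg, Cebpa, Fabp4, Adipoq, Plin1, Plin4, Lpl, Ucp1, Cidea and Dio2, taken by symbol from a table of read counts for 54232 genes, in which 10 of 10 were found. The genes were chosen by their counts in these same libraries, which were uneven between replicates and between stages, so their levels and differences are descriptions and no p-value is printed for them. Where the fit over all genes is said to call some of them, the count describes how the fold compares with the replicate spread and is no independent test. Palatal shelves, the paired folds that grow, lift and fuse to form the roof of the mouth, were dissected from wild-type (WT) mice. Shelves were taken at birth (P0) and on 4 embryonic days, namely E13.5, E14.5, E15.5 and E16.5. Each stage has 3 libraries of bulk RNA, 15 in all, and each library is a pool of 3 embryos or newborns. No treatment, mutant or other tissue entered the comparisons. The labels give no litter or dissection batch, and they do not say whether the 3 libraries of a stage come from separate litters, so the spread between them may be partly technical.

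Fat cells form when PPAR-gamma (Pparg) and C/EBP-alpha (Cebpa), transcription factors that switch each other on, activate the genes for taking up, storing and releasing fat. White fat cells hold a large lipid droplet coated by perilipin 1 (Plin1) and secrete adiponectin (Adipoq). Brown fat cells make heat. Their mitochondria carry uncoupling protein 1 (Ucp1), which lets protons leak back without making ATP, and they also express Cidea, a lipid droplet protein, and Dio2, the enzyme that turns thyroxine into active thyroid hormone. Adiponectin and perilipin 1 are made by brown fat cells as well. Several of the 10 genes are not limited to fat. Fabp4, a fatty acid carrier, is expressed by the endothelium of small vessels, Lpl, the lipase that frees fatty acids from lipoproteins, and Plin4, another droplet coat, by muscle, and Cebpa by liver, myeloid cells and some epithelia. In mouse embryos brown fat forms before birth in the neck and between the shoulder blades, while most white fat depots fill around or after birth.

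The promoters of 4 of the genes are shown because these 4 carry the contrast described below: Adipoq, Plin1 and Ucp1 were high in only a few late libraries, whereas Plin4 was higher in every late library. Each sequence runs from 250 bases before to 50 bases after the gene's start, 5' to 3' along the gene, as given by RefSeq on GRCm38.p6. Capitals mark every match, on either strand, to AGGTCA (the core letters bound by nuclear receptors such as PPAR-gamma), to TTGCNNAA (letters bound by C/EBP factors) or to CCAAT, whose reverse complement reads ATTGG.
Adipoq, chr16:23146286-23146585, forward strand: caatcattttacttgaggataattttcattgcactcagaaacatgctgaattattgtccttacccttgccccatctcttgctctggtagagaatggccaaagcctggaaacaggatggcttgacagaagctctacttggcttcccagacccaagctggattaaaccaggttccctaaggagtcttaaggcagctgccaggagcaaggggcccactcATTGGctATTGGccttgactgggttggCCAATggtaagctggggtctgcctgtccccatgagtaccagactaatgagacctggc
Plin1, chr7:79732727-79733026, reverse strand: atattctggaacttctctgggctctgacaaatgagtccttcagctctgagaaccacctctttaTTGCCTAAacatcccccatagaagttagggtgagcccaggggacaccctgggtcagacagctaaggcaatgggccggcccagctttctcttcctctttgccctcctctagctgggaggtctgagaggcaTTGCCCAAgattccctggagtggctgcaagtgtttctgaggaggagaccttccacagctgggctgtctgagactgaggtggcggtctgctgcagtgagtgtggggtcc
Ucp1, chr8:83290098-83290397, forward strand: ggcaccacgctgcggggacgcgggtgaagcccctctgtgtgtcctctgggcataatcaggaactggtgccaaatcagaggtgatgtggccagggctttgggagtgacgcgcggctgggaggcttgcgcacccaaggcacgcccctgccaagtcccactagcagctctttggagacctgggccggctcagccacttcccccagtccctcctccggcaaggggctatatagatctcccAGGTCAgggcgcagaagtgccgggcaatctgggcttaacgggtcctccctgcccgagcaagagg
Plin4, chr17:56109733-56110032, reverse strand: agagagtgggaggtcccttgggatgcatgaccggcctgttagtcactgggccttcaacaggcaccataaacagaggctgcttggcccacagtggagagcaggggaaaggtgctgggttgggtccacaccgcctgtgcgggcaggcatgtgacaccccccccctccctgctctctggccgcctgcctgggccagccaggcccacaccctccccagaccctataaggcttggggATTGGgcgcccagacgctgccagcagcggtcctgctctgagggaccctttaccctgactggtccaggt
Windows were searched for 7 of the 10 genes with 9 starts, 3 of them for Pparg. The Adipoq window held 3 CCAAT matches, starting 34, 27 and 7 bases before the start. The Plin1 window held 2 TTGCNNAA matches, the Ucp1 window 1 AGGTCA ending 9 bases before the start, and the Plin4 window 1 CCAAT. No motif was shared by the windows of Adipoq, Plin1 and Ucp1. Among the starts not printed, AGGTCA lay once at each of the upstream 2 Pparg starts. The most downstream Pparg start, which serves the isoform enriched in fat, held 2 TTGCNNAA and 2 CCAAT matches, Dio2 held 1 TTGCNNAA, and Cebpa held none of these letters. Over 32851 promoters of the same length, 37.4% held CCAAT, 16.3% AGGTCA and 10.8% TTGCNNAA. The full PPAR element, 2 AGGTCA copies 1 base apart, was in 0.0396% of all promoters and in none of the 9 windows. These matches describe letters in a short window and are not evidence of binding.

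Sequencing depth was 21.5 to 69.0 M counted fragments per library (median 61.0 M), with P0 replicate 3 the shallowest. Levels are in CPM, the fragments of a gene per M fragments counted in its library (M stands for mega), scaled by TMM factors (trimmed mean of M values), which set libraries to a common level for most genes. A count of 3, taken as the detection floor, equals 0.0435 to 0.140 CPM before this scaling. The palate genes Pax9 (23.8 to 94.2 CPM) and Osr2 (16.9 to 73.0 CPM) were present in every library. The Y-linked gene Ddx3y was at or under 0.06 CPM in the 3 E16.5 libraries, so at that stage sex and age cannot be told apart. Replicates differed by far more than counting error, with a chi-square per degree of freedom of 29.5 to 225.

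Mature fat-cell genes were concentrated in a few late libraries. Adiponectin's gene Adipoq (chr16:23146536-23158028, GRCm38) stood at 0.129, 0.254 and 0.208 CPM at E13.5 in replicates 1, 2 and 3, and at 0.140, 0.136 and 0.126 CPM at E14.5. At E15.5 its levels were 0.0506, 5.66 and 0.463 CPM. Only replicate 2 of these 9 libraries exceeded 1 CPM. The E16.5 libraries held 181, 0.360 and 0.416 CPM of Adipoq, and the P0 libraries 32.9, 194 and 0.522 CPM. Thus E16.5 replicate 1, P0 replicate 1 and P0 replicate 2 were high, and the other 3 late libraries stayed at or under 0.522 CPM. In counts, the high libraries held 8392, 1185 and 6367 Adipoq fragments, against 13 and 17 at E16.5 and 12 at P0 in the others. Within E16.5 the highest library was 504 times the lowest and held 99.6% of the stage's summed CPM. Within P0 the highest was 372 times the lowest.

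Plin1 (chr7:79720218-79732903) encodes the coat that guards the fat droplet against lipases. It followed the same libraries. Its E16.5 levels were 121, 0.166 and 0.343 CPM and its P0 levels 21.3, 89.1 and 0.261 CPM. At E15.5 it stood at 0.118, 2.46 and 0.145 CPM, again with replicate 2 apart. The 6 libraries of E13.5 and E14.5 lay between 0.0149 and 0.280 CPM, which is 1 to 18 counts. The lowest of E16.5 replicates 2 and 3 and P0 replicate 3 was 0.592 times the highest of those 6 early libraries, so outside the 3 high libraries the late and early ranges of Plin1 overlapped.

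Ucp1 (chr8:83290352-83298452) is the gene of heat production. Its lowest level in the 3 high libraries was 77.7 times its highest in the other late ones. This was the largest such ratio of the 10 genes. In E16.5 the Ucp1 levels were 199.7, 1.08 and 1.66 CPM, and in P0 243, 1396 and 2.57 CPM. Within E16.5 alone the gap was wider for Adipoq (181 against at most 0.416 CPM) and Plin1 (121 against at most 0.343 CPM). P0 replicate 2 alone held 45784 Ucp1 fragments, while P0 replicate 3 held 59. E13.5 gave 0.0860, 0.183 and 0.0446 CPM, E14.5 gave 0.187, 0.303 and 0.562 CPM, and E15.5 gave 0.0169, 0.0894 and 0.694 CPM. Ucp1 therefore differed from Adipoq and Plin1 in E15.5 replicate 2, where it was near the floor at 6 counts while Adipoq had 380 counts. In E16.5 replicates 2 and 3 and P0 replicate 3, each Ucp1 level was above all 6 early libraries, but the lowest exceeded the highest early level by only 1.92 times.

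**Figure D1:**
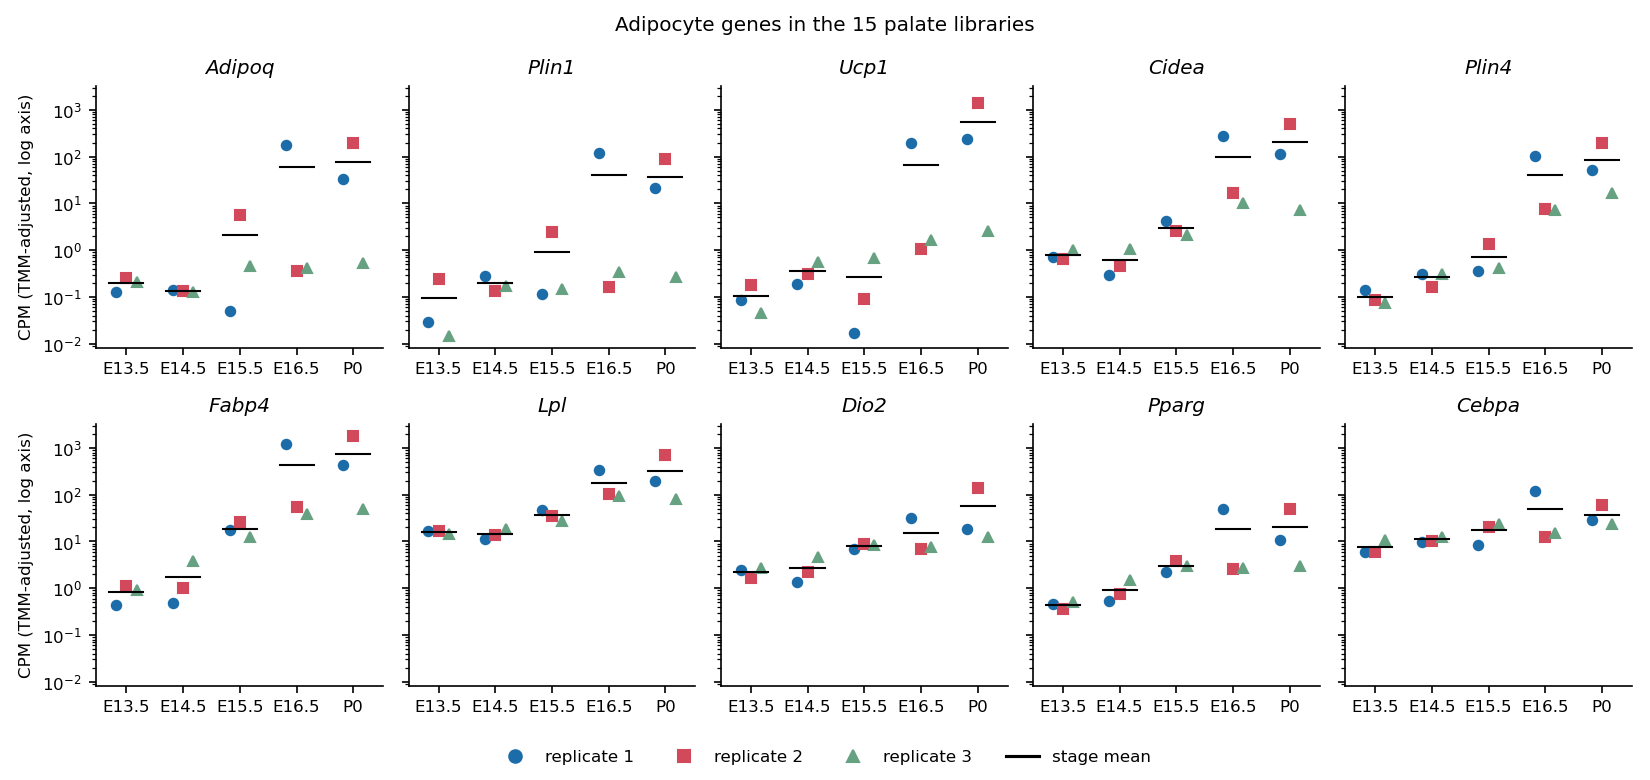
Level of each of the 10 genes in each of the 15 libraries, in TMM-adjusted CPM on a log axis, by stage; symbols give the replicate number and bars the stage mean. Adipoq, Plin1 and Ucp1 are high in E16.5 replicate 1 and P0 replicates 1 and 2 and stay under 3 CPM in the other late libraries, while Plin4 and Lpl are higher in every E16.5 and P0 library than in any E13.5 or E14.5 library.

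Lipid genes that are also expressed outside fat differed from this pattern. Plin4 (chr17:56100591-56109803) rested at 0.143, 0.0845 and 0.0743 CPM at E13.5 and at 0.312, 0.166 and 0.309 CPM at E14.5. It measured 0.354, 1.39 and 0.419 CPM at E15.5, then 106, 7.58 and 7.34 CPM at E16.5 and 51.8, 192 and 16.8 CPM at P0. The same 3 libraries were highest, but the other 3 late libraries were also raised. The lowest of these was 23.6 times the highest of the 6 early libraries, the widest such gap of the 10 genes.

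Fabp4 (chr3:10204088-10208576) was 0.444, 1.14 and 0.936 CPM at E13.5, 0.483, 0.999 and 3.85 CPM at E14.5, and 17.3, 25.5 and 12.4 CPM at E15.5. At E16.5 it reached 1211, 53.9 and 39.3 CPM, and at P0 431, 1805 and 49.2 CPM. All 3 E15.5 libraries lay above all E14.5 libraries, and E16.5 replicates 2 and 3 and P0 replicate 3 lay higher still. The lowest of those 3 was 10.2 times the highest early library. Endothelial markers, summed over 7 genes, stood at 322 to 428 CPM in the early libraries, 467 to 472 CPM in these 3 and 612 to 778 CPM in the 3 high libraries. Their part in the Fabp4 levels was not tested.

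Lpl (chr8:68880491-68907448) was already present at the start, with 16.4, 16.9 and 14.6 CPM at E13.5 and 11.3, 13.7 and 18.8 CPM at E14.5. Its levels were 46.5, 35.0 and 27.4 CPM at E15.5. At E16.5 they were 341, 102 and 93.2 CPM, and at P0 199, 701 and 81.0 CPM. From E14.5 to E15.5 and from E15.5 to E16.5 the libraries of neighbouring stages did not overlap, whereas E16.5 and P0 did. The 3 high libraries stood out least for Lpl and for Cebpa and Dio2: the lowest of the 3 was 1.96 times the highest of the other late libraries for Lpl, against 62.9 times for Adipoq and 77.7 times for Ucp1.

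Cidea, counted with Ucp1 as a brown fat gene, behaved more like Plin4 and Fabp4 in the low libraries. It gave 0.702, 0.634 and 1.03 CPM at E13.5, 0.296, 0.469 and 1.08 CPM at E14.5 and 4.23, 2.58 and 2.10 CPM at E15.5. It then gave 273, 16.9 and 10.3 CPM at E16.5 and 115, 503 and 7.36 CPM at P0. In E16.5 replicates 2 and 3 and P0 replicate 3, where Adipoq had 12 to 17 counts, the lowest Cidea level was 6.80 times the highest early library.

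The fat-cell transcription factors and Dio2 lay between these patterns. Pparg (chr6:115360951-115490399) stood at 0.459, 0.366 and 0.520 CPM at E13.5, 0.530, 0.757 and 1.53 CPM at E14.5 and 2.21, 3.74 and 3.04 CPM at E15.5. It reached 49.2 CPM in E16.5 replicate 1, while replicates 2 and 3, at 2.60 and 2.67 CPM, were within the E15.5 range. At P0 the levels were 10.8, 48.7 and 3.00 CPM. Outside the 3 high libraries, Pparg was thus no higher at E16.5 or P0 than at E15.5.

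Cebpa (chr7:35119293-35121928) was measurable throughout, at 6.03, 6.0 and 10.8 CPM at E13.5, 9.88, 10.4 and 12.8 CPM at E14.5 and 8.43, 20.5 and 23.6 CPM at E15.5. E16.5 gave 123, 12.4 and 14.9 CPM and P0 gave 28.3, 60.0 and 23.5 CPM. It had the smallest spread at P0, where the highest library was 2.56 times the lowest, and its late and early ranges overlapped outside the 3 high libraries. Dio2 (chr12:90724552-90738438) gave 2.41, 1.62 and 2.67 CPM at E13.5, 1.37, 2.19 and 4.59 CPM at E14.5, and 6.86, 8.77 and 8.24 CPM at E15.5. Its E16.5 levels were 31.4, 6.97 and 7.66 CPM and its P0 levels 18.6, 139 and 12.7 CPM. All E15.5 libraries of Dio2 lay above all E14.5 libraries, and E16.5 replicates 2 and 3 stayed in the E15.5 range.

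**Figure D2:**
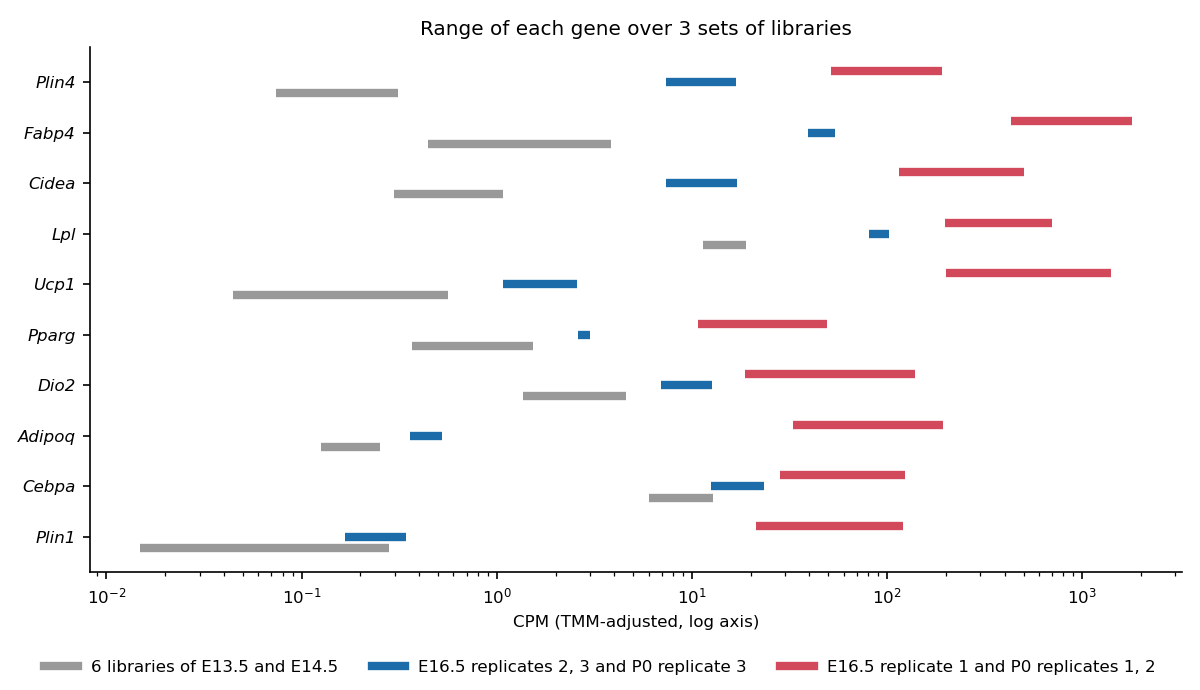
Lowest to highest level of each gene, in TMM-adjusted CPM on a log axis, over the 6 libraries of E13.5 and E14.5 (grey), E16.5 replicates 2 and 3 with P0 replicate 3 (blue), and E16.5 replicate 1 with P0 replicates 1 and 2 (red). Grey and blue are 23.6 times apart for Plin4 and overlap for Plin1 and Cebpa; the sets were formed after the levels were seen and carry no test.

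Counts over the 10 genes show how far the split reached. At E16.5 the highest library was at least 10 times the lowest for 7 of the 10 genes, against 1.46% of all tested genes, and in each case the high library was replicate 1, which exceeded both of the others 10 times for 7 genes (0.600% of all). At P0 it was 8 of 10 (2.84% of all), and at E15.5 it was 3 (1.71% of all), namely Adipoq, Plin1 and Ucp1. In E15.5 replicate 2, Adipoq and Plin1 were at least 10 times each of the other libraries of the stage (0.0767% of all genes). For 4 genes, Adipoq, Plin1, Ucp1 and Cidea, P0 replicates 1 and 2 were each at least 10 times replicate 3 (0.176% of all). None of the 10 spanned 10 times within E13.5 (1.04% of all) or E14.5 (0.393% of all). Of the 10, 8 were higher in each of E16.5 replicates 2 and 3 and P0 replicate 3 than in any of the 6 early libraries, against 24.8% of all genes. With a margin of at least 2 times there were 4, Fabp4, Plin4, Lpl and Cidea, against 8.51% of all genes. Since the genes were chosen for these levels, the shares are background and nothing further is read from them.

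The share of the variance of log2 CPM that lay between stages puts the same contrast on a scale from 0% (all spread between replicates) to 100%. It was 90.4% for Plin4, 84.1% for Fabp4, 83.9% for Lpl and 78.1% for Cidea. These 4 were the most stage-wide. Dio2 had 73.0%, Ucp1 69.8%, Pparg 68.0% and Cebpa 51.7%, and the lowest were Adipoq at 45.5% and Plin1 at 43.8%. Over all 22151 tested genes the median was 67.2% and the middle range 46.3% to 82.6%, so Adipoq and Plin1 lay just under the middle range and Plin4, Fabp4 and Lpl above it. As a description of genes chosen for uneven replicates, the SD of log2 CPM within stages was 3.27 for Adipoq, 3.20 for Plin1 and 2.96 for Ucp1, with a median of 1.66 over the 10 genes and 0.354 over all genes. Without the 3 high libraries the share between stages was 90.8% for Pparg, 92.9% for Cidea and 95.9% for Lpl, and 27.2% for Adipoq and 32.7% for Plin1. Taking out libraries picked by their level removes spread within stages, and P0 replicate 3, left alone, adds none. No median over all genes is given for these libraries, so nothing is read from the change.

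**Figure D3:**
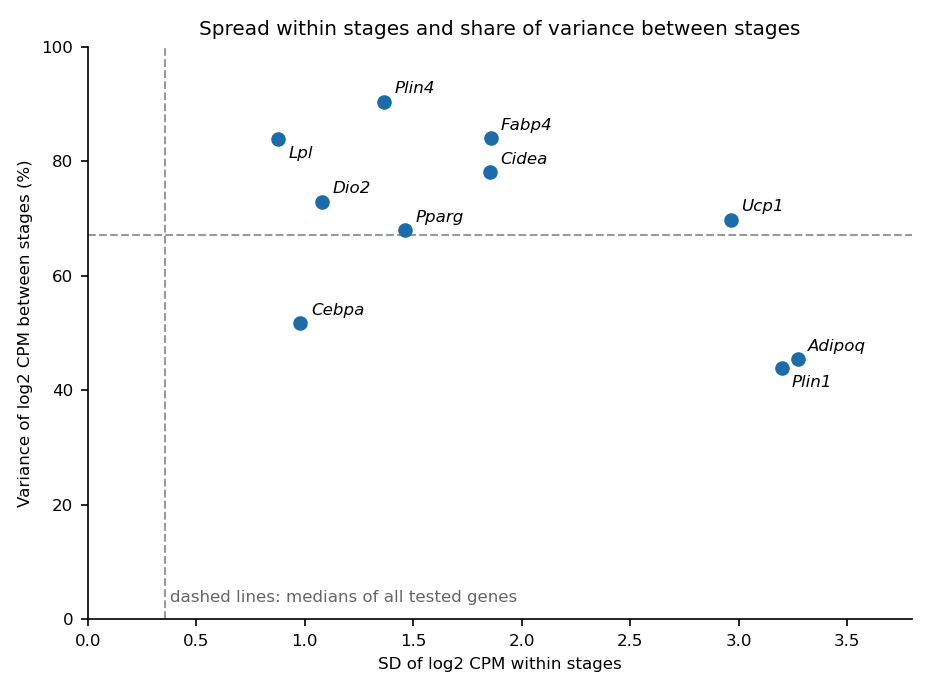
Share of the variance of log2 CPM between stages (vertical axis, percent) against the SD of log2 CPM within stages (horizontal axis) for each of the 10 genes over 15 libraries; dashed lines are the medians of all tested genes. Adipoq and Plin1 sit at the lower right with within-stage SDs of 3.27 and 3.20, and all 10 genes lie to the right of the median of 0.354.

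Deviations of log2 CPM from the stage mean moved together. Over the 45 pairs of the 10 genes, Pearson's r between deviations in the 15 libraries was 0.634 to 0.970, with a median of 0.870. In the 11 libraries left after taking out the 3 high ones and P0 replicate 3, which then has no partner, the same r ranged from -0.529 to 0.957 with a median of 0.225. These are descriptions: within a library all genes share its depth and dissection, and the median r was lower once those 4 libraries were out.

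The makeup of the fat signal differed among the libraries that carried it. For comparisons between genes, levels were divided by gene length and rescaled to a common total per library (TPM). Fabp4's TPM is understated, since the deposited length of 4489 bases spans its whole locus. Relative to Adipoq, the TPM of Ucp1 was 0.0133 times in E15.5 replicate 2 and 0.931 times in E16.5 replicate 1. It was 6.24 times in P0 replicate 1 and 6.07 times in P0 replicate 2. Ucp1 ranked the lowest of the 10 genes by TPM in E15.5 replicate 2, the fourth in E16.5 replicate 1 and the highest in P0 replicates 1 and 2, at 386 and 2225 TPM. Fabp4, at 250 and 1049 TPM in these P0 libraries, could rank above Ucp1 with a shorter length, so the order of these 2 genes is not settled. Cidea's ratio to Adipoq was 0.540, 1.79, 4.15 and 3.08 in the same order of libraries, and that of Plin1 stayed between 0.129 and 0.198. At E15.5, however, Cidea had 4.23, 2.58 and 2.10 CPM in replicates 1, 2 and 3, and Ucp1 had 1, 6 and 48 counts. Neither gene was highest in replicate 2, so their ratios there are no measure of the makeup of its fat signal. Only P0 has 2 libraries that carried the fat signal, so the difference in makeup between stages has no replicate check at E15.5 or E16.5. In bulk RNA, more fat cells and more RNA of a gene per fat cell cannot be told apart.

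By mean TPM over all 3 libraries, Cebpa ranked highest from E13.5 to E15.5, at 10.7 ± 3.43 TPM (SD, n = 3) at E13.5, 15.1 ± 2.25 TPM at E14.5 and 24.4 ± 11.4 TPM at E15.5. At E15.5 Fabp4 had 15 ± 5.77 TPM, and the order of the pair there depends on the length used for Fabp4. At E13.5 Cebpa was followed by Lpl (5.73 ± 0.642 TPM) and Cidea (2.53 ± 0.579 TPM). At P0 the order of the means was Ucp1 (872 ± 1187 TPM), Cidea (468 ± 583 TPM) and Fabp4 (445 ± 534 TPM). P0 replicates 1 and 2 each had this order, but replicate 3 had the reverse, with 5.07, 20.4 and 35.4 TPM. The order at P0 is thus not settled, also because Fabp4's TPM is understated.

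Between neighbouring stages the fit over all 22151 genes (edgeR's quasi-likelihood F test) described few differences in the 10 genes as larger than the replicate spread. Log2 fold changes are given with their standard error (SE), and called means a Benjamini-Hochberg adjusted p under 0.05 over all genes. Counts from DESeq2, from other sets of libraries or at an unadjusted p have no share of all genes beside them. They show only how far a result depends on the method. From E13.5 to E14.5 the log2 fold changes lay between -0.55 ± 2.72 (Adipoq) and 1.72 ± 2.63 (Ucp1). None of the 10 was called, against 0.00903% of all genes, none had an unadjusted p under 0.05 and DESeq2 called none. The libraries of the 2 stages did not overlap for 3 genes, Pparg, Plin4 and Ucp1, all higher at E14.5 (15.5% of all genes). For Pparg and Ucp1 the margin was within counting error. The lowest E14.5 and highest E13.5 libraries had 0.530 and 0.520 CPM of Pparg (34 and 35 counts). For Ucp1 they had 0.187 and 0.183 CPM (12 and 13 counts).

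From E14.5 to E15.5 the largest log2 fold changes were 3.92 ± 2.44 for Adipoq, which rested on E15.5 replicate 2 and was 0.96 without it, and 3.36 ± 1.40 for Fabp4. Cidea followed with 2.25 ± 1.37. None of the 10 was called, beside 26.1% of all genes. Unadjusted p was under 0.05 for 1 of the 10, DESeq2 called 1, and a fit of only the 6 libraries of these stages called 5 of the 9 it tested. The 26.1% belongs to the main fit, and no such share is given for DESeq2 or the 6 libraries. In 6 genes, Pparg, Fabp4, Plin4, Lpl, Cidea and Dio2, every E15.5 library lay above every E14.5 library (24.0% of all genes higher in this way).

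From E15.5 to E16.5 the log2 fold changes were 7.93 ± 2.38 for Ucp1, 5.79 ± 1.22 for Plin4, 5.47 ± 2.27 for Plin1, 5.08 ± 1.43 for Cidea, 4.88 ± 2.22 for Adipoq and 4.56 ± 1.45 for Fabp4. Plin4 was the 1 gene called, against 1.41% of all genes (1.03% higher and 0.379% lower). DESeq2 called 6, and 8 had an unadjusted p under 0.05, with no share of all genes to set beside either. Every E16.5 library lay above every E15.5 library for Fabp4, Plin4, Lpl, Ucp1 and Cidea (15.7% of all genes higher in this way). Without the 3 high libraries the fold change turned negative for Adipoq (-2.37), Plin1 (-1.78), Cebpa (-0.32), Pparg (-0.16) and Dio2 (-0.10). For Adipoq and Plin1 this rests on E15.5 replicate 2, which stayed in the fit and was far above the other E15.5 libraries. The fold change stayed positive for Plin4 (3.39), Ucp1 (2.38), Cidea (2.2), Lpl (1.44) and Fabp4 (1.35). Without E15.5 replicate 1, 2 or 3, or without E16.5 replicate 1 or 2, taken out in turn, 0 of the 10 were called.

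Between E16.5 and P0 the 10 genes did not separate. The largest log2 fold changes were 3.02 ± 1.81 for Ucp1 and 1.89 ± 0.83 for Dio2, 0 of 10 were called (0.352% of all genes) and the libraries overlapped for every one of them (6.23% of all genes were higher without overlap). Unadjusted p was under 0.05 for 1 gene, and DESeq2 called none.

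Across the whole span, from E13.5 to P0, 10 of the 10 genes were called higher, beside 29.8% of all genes called higher and 56.6% called in either direction. Nothing is read from this count, since the genes were chosen by these levels. Every P0 library lay above every E13.5 library for 10 of 10 (30.2% of all genes). Ucp1 had the largest log2 fold change, 12.31 ± 2.83, followed by Fabp4 (9.82 ± 1.85), Plin4 (9.72 ± 1.50), Adipoq (8.57 ± 2.71), Plin1 (8.56 ± 2.71) and Cidea (8.05 ± 1.66). Pparg, Dio2, Lpl and Cebpa had 5.53 ± 1.29, 4.67 ± 0.94, 4.36 ± 0.73 and 2.29 ± 0.76. Leaving out the 3 high libraries leaves P0 replicate 3 alone at its stage, so only fold changes are given for that fit. The small values of Adipoq and Plin1 follow in part from how the 3 libraries were picked, by their Adipoq level. Plin4 then had a log2 fold change of 7.26, Fabp4 5.78, Ucp1 4.49, Cidea 3.14, Pparg 2.65, Dio2 2.42, Lpl 2.25, Cebpa 1.54, Plin1 1.34 and Adipoq 1.31.

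**Figure D4:**
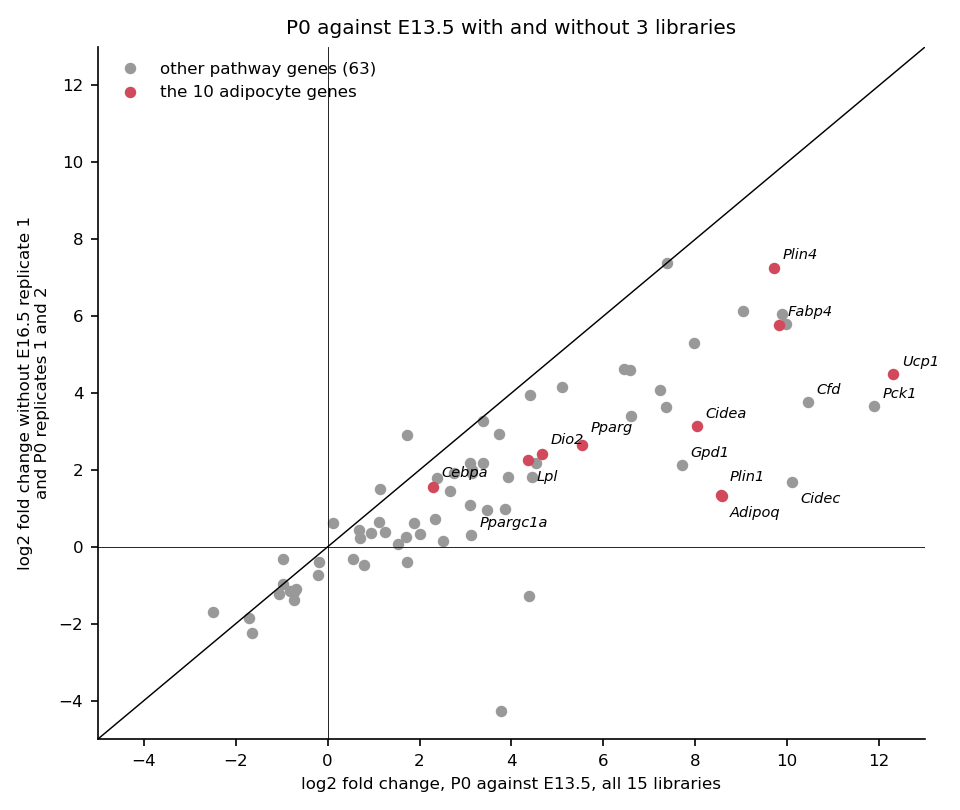
Log2 fold change from E13.5 to P0 with all 15 libraries (horizontal axis) and without E16.5 replicate 1 and P0 replicates 1 and 2 (vertical axis) for the 10 genes (red) and 63 other tested genes of fat pathways (grey); the diagonal marks equal values. Plin4 keeps 7.26 of 9.72, whereas Adipoq and Plin1 drop to 1.31 and 1.34.

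Other genes of fat-cell biology were taken from 5 lists of 65 genes, of which 63 were tested, all but Lep and Retn. From E13.5 to P0, 44 of the 63 rose and 10 fell, against 29.8% and 26.8% of all genes. The median log2 fold change of the 63 was 2.75, beside 0.03 over all tested genes. Uptake genes and secreted proteins rose in 9 of 10 tested. In other brown fat genes 9 of 12 rose and 1 fell, in lipid storage and synthesis 12 of 20 rose and 4 fell, in regulators 9 of 14 rose and 4 fell, and in progenitor genes 5 of 7 rose and 1 fell. Several of the brown fat genes that rose (Cox7a1, Cox8b, Fabp3, Pdk4 and Ucp3) are also expressed in muscle. Of the 7 skeletal muscle markers 6 rose in the same comparison, with a median log2 fold change of 6.38, and their part in these counts was not tested. Without the 3 high libraries 58 of the 63 kept the direction of their fold change from E13.5 to P0.

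The genes with the largest rises to P0 were, like Adipoq, low in P0 replicate 3. Pck1, which supplies glycerol for fat storage, rose by a log2 fold change of 11.89 ± 2.82 (SE, adjusted p = 0.00332, edgeR), and Cfd, the secreted adipsin, by 10.46 ± 2.85 (adjusted p = 0.00754, edgeR). Cidec, a partner of perilipin 1 on the droplet, was at or under 3 counts in all E13.5 libraries and at 29.1 ± 35.0 CPM (SD, n = 3) at P0, at least 672-fold higher (adjusted p = 0.0115, edgeR). Aqp7, the glycerol channel, was at least 275-fold higher, at 11.9 ± 16.4 CPM (adjusted p = 0.00209, edgeR). These bounds set the P0 mean against 3 counts per library at E13.5. The SDs exceed the means because P0 replicate 3 was low, with 2 counts of Cidec and 7 of Cfd, against 2230 and 2319 in replicate 2. Without the 3 high libraries the log2 fold changes were 1.68 for Cidec, 3.76 for Cfd, 5.81 for Aqp7 and 3.67 for Pck1.

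Regulators of early and brown fat-cell fate were among the 10 that fell over the same span, although 9 of the 14 listed regulators rose and 4 fell. Cebpd (log2 fold change 4.40 ± 0.37), Ppara (3.92 ± 0.70) and Ppargc1a (3.13 ± 0.80) were among those that rose. With the 3 high libraries left out, the log2 fold changes were 3.96 for Cebpd, 1.81 for Ppara and 0.31 for Ppargc1a. Zfp423, a factor of committed preadipocytes, fell from 89.9 ± 5.36 to 27.4 ± 3.53 CPM (SD, n = 3), a log2 fold change of -1.71 ± 0.14 (adjusted p = 3.78e-06, edgeR). Prdm16, a brown fat determinant that is also needed for palate closure, fell from 49.5 ± 5.58 to 15.8 ± 4.11 CPM (log2 fold change -1.65 ± 0.20, adjusted p = 4.16e-05, edgeR). Zfp423 and Prdm16 had log2 fold changes of -1.84 and -2.23 without the 3 high libraries. Ebf1 and Ebf2 fell as well, although the log2 fold change of Ebf2 was -0.32 without those libraries, in place of -0.97. Zic1, listed as a brown fat gene and better known for neural and axial tissue, fell by 2.51 ± 0.59 on the log2 scale (adjusted p = 0.00305, edgeR), and Pdgfra, a mesenchyme receptor, by 1.06 ± 0.27 (adjusted p = 0.00459, edgeR). Without the 3 high libraries the log2 fold changes were -1.68 for Zic1 and -1.22 for Pdgfra, the latter no smaller than with all libraries. Among synthesis genes, Fasn, Acaca, Acly and Elovl6, which are active in many growing cells, fell. They are the 4 that fell in the list of lipid storage and synthesis, where 12 of 20 rose, among them Scd1 and Thrsp. Leaving out the 3 high libraries gave log2 fold changes of 0.97 for Scd1 and 6.06 for Thrsp, in place of 3.85 and 9.90.

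Between E14.5 and E15.5, 7 of the 63 rose and 6 fell, against 12.7% and 13.4% of all genes. Car3, a carbonic anhydrase of fat and muscle, rose from 8.87 ± 6.66 to 98.5 ± 53.7 CPM (log2 fold change 3.47 ± 1.03, adjusted p = 0.0277, edgeR). Cox8b, a muscle and brown fat isoform of cytochrome oxidase, rose by 3.18 ± 0.93 (adjusted p = 0.0257, edgeR). Summed skeletal muscle markers went from 229 to 1104 CPM over the E14.5 libraries to 1748 to 4705 CPM over the E15.5 libraries, and their part in these rises was not tested. The progenitor surface genes Ly6a (3.04 ± 0.41, adjusted p = 0.000814, edgeR) and Pi16 (2.34 ± 0.49, adjusted p = 0.00600, edgeR) rose too. Zic1 (-3.72 ± 0.61, adjusted p = 0.00207), Cd24a (-1.35 ± 0.27, adjusted p = 0.00514), Zfp423 (-0.87 ± 0.13, adjusted p = 0.00143) and Acly (-0.87 ± 0.20, adjusted p = 0.00894) fell by edgeR's test. The fall of Zic1 started from a high and uneven E14.5 level. It had 59.6 ± 18.3 CPM (SD, n = 3) at E13.5, 155 ± 100 CPM at E14.5 and 11.8 ± 2.46 CPM at E15.5.

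In the other steps edgeR called 0 to 2 of the 63. From E15.5 to E16.5 Ly6a rose from 2.54 ± 0.883 to 18 ± 6.05 CPM (log2 fold change 2.83 ± 0.39, adjusted p = 0.0224, edgeR) and Zfp423 fell by 0.61 ± 0.13 on the log2 scale (adjusted p = 0.0482, edgeR). Those 2 are 2 of 63, beside 1.41% of all genes, but 37 of the 63 had an unadjusted p under 0.05 and DESeq2 called 26. The median log2 fold change of the 63 was 1.21, beside a median of about 0 over all tested genes. Without the 3 high libraries 52 of the 63 kept their direction, with log2 fold changes of 2.58 for Ly6a and -0.54 for Zfp423. From E13.5 to E14.5 and from E16.5 to P0, 0 of the 63 were called by edgeR, with 4 and 7 at an unadjusted p under 0.05, and DESeq2 called 1 and 4.

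Markers of other tissues were set beside the fat genes, as sums over fixed lists. The 6 markers of mature fat cells (Adipoq, Plin1, Cidec, Cfd, Retn and Lep) summed to 92.9 to 441 CPM in the 3 high libraries and 0.747 to 1.26 CPM in the other 3 late libraries. They summed to 9.53 CPM in E15.5 replicate 2. Adipoq and Plin1 belong to the 10 genes, and the 3 libraries were picked by Adipoq, so this sum is no separate measure of fat. Hox genes, which mark tissue behind the jaws, summed over 9 genes to 41.0, 1.27 and 1.30 CPM at E16.5 and 5.38, 25.3 and 0.131 CPM at P0. They were thus higher in the 3 libraries with fat signal than in the other 3 late ones, and at E15.5 replicate 2 was again the highest, at 7.63 CPM. At E14.5, however, the Hox sums were 493, 190 and 68.4 CPM while the fat markers summed to no more than 0.733 CPM in any E13.5 or E14.5 library. Skeletal muscle markers summed to 33260, 15696 and 11278 CPM at E16.5 and 26180, 31598 and 5625 CPM at P0, so the same 3 libraries were highest here too.

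Secretory gland markers over 4 genes summed to 339 to 616 CPM in the 3 high libraries and 190 to 242 CPM in the other late ones, and Bpifa2 of that list was too low to test. Macrophage markers gave 253 to 401 CPM and 199 to 291 CPM in the same sets, which overlap. Sebaceous markers were low, at 2.02 to 5.34 CPM and 2.52 to 4.96 CPM. The sum of the liver markers varied without following the fat genes, from 2.88 to 363 CPM and from 2.52 to 98.7 CPM. Its genes did not move together. Ttr had log2 fold changes of -7.70 ± 2.21 from E14.5 to E15.5 and 6.11 ± 2.08 from E16.5 to P0. Over the same steps Alb had 0.75 ± 0.83 and -0.37 ± 0.94, and Apoa2 0.23 ± 0.48 and 0.15 ± 0.48. The sum is thus no measure of liver tissue. The part of these tissues in the levels of the 10 genes was not tested, and whether the fat RNA came from within the palate or from tissue dissected with it cannot be told apart in these libraries.

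**Figure D5:**
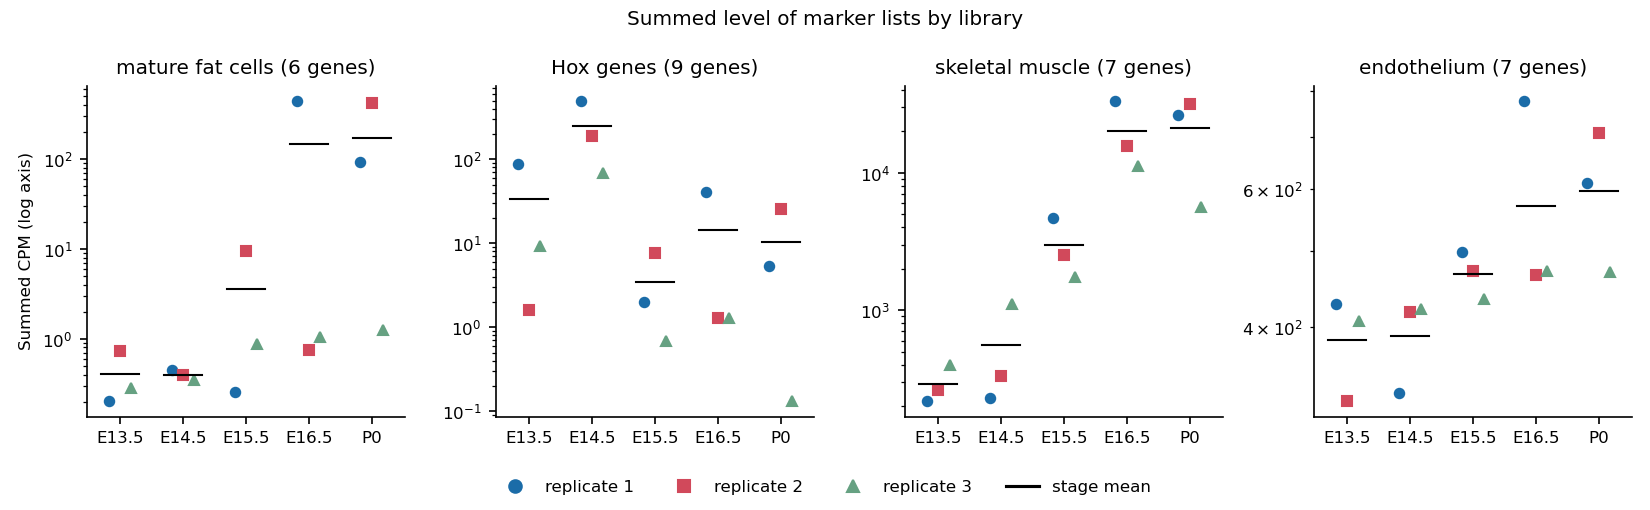
Summed CPM (log axes, each with its own range) of markers of mature fat cells, Hox genes, skeletal muscle and endothelium in the 15 libraries by stage; symbols give the replicate and bars the stage mean. E16.5 replicate 1 and P0 replicates 1 and 2 are the highest of their stages in all 4 panels, and the Hox sums are largest at E14.5, where the fat markers are low. The fat panel includes Adipoq, by which these libraries were picked.

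Genes with the most similar profile were listed over the 15 libraries among 16519 genes with a mean of at least 1 CPM. For Adipoq, Pearson's r of log2 CPM was 0.992 with Cidec, 0.973 with Plin1, 0.961 with Cfd, 0.958 with Gpd1 (the enzyme that makes glycerol phosphate) and 0.954 with Pnpla2 (the fat lipase ATGL). Pparg was most like Cd36, the fatty acid transporter, at 0.988, followed by Retsat at 0.976, Adh1 at 0.975, Cpt2 at 0.974 and 2300002M23Rik at 0.971. Ucp1 was most like Pck1 at 0.978, then Cfd and Suclg1 at 0.962, Cox4i1 at 0.961 and Ndufs4 at 0.960. Suclg1, Cox4i1 and Ndufs4 encode mitochondrial proteins of the citric acid cycle and respiratory chain. When stage means were taken out, the closest gene was Cidec for Adipoq (0.989), Etfb for Pparg (0.991) and Tmem126a for Ucp1 (0.963). The 3 high libraries are among the 15 behind each r, and no r has a test.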

How the data were processed

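Bulk RNA-seq of wild-type palates was analysed from the deposited counts per gene, which the authors made with featureCounts 2.0.1 on reversely stranded read pairs against GENCODE M18, per the file headers. The submitters' processing notes also name cutadapt 3.4, HISAT2 2.2.1, Bowtie2, SAMtools 1.12 and build mm10. They give no roles for these. Strand-aware counting separates a gene from its antisense partner. Total counts were 21.5 to 69.0 M per library.

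Gene positions matched GENCODE M21 on GRCm38 for 97.7% of identifiers, and symbols came from M21. Genes were filtered with filterByExpr (minimum count 10), which kept 22151. After TMM scaling, edgeR 4.0.16 under R 4.3.3 fitted the 15 libraries with a term per stage, using quasi-likelihood F tests and a Benjamini-Hochberg threshold of 0.05. Each SE was obtained by dividing the log2 fold change by the square root of F. Log2 CPM used a prior count of 2. TPM used the deposited length column. The floor of 3 counts covers counting error only. The procedure was tested on simulated data.

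The 10 genes, the lists and the tests were chosen with earlier results of these data known. Pathway genes were named as up to 4 largest rises and falls per comparison past that threshold, with a mean of 1 CPM or more and no overlap between stages, and other list members as such. Alternatives were DESeq2 1.42.0, other scalings and filters, 6-library fits, a replicate block and leaving out libraries. Leaving out the 3 libraries highest in Adipoq, and a prior count of 2 in the fit, were chosen after seeing the data. The replicate number was not treated as a pairing: same-numbered libraries of neighbouring stages had deviations correlated at -0.303 to 0.548.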

Additional observations from a re-analysis of the deposited data

How the results depend on the processing

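The 10 genes were higher at P0 than at E13.5 in 150 of 150 refitted fold changes. The number called in that comparison was 7 to 10 when 1 library was left out in turn. For E15.5 against E14.5 the count of 0 became 5 of 9 tested with only the 6 libraries of the contrast and 1 with DESeq2. For E16.5 against E15.5 the count of 1 became 0 with 6 libraries and 6 with DESeq2, and it was 0 to 1 with 1 library left out. No alternative moved the count of 0 for E14.5 against E13.5 or for P0 against E16.5. Directions were kept in 136 of 139 refits for E14.5 against E13.5, 135 of 139 for E15.5 against E14.5, 140 of 150 for E16.5 against E15.5 and 131 of 150 for P0 against E16.5. The cause of these changes was not tested. No share of all genes is given for DESeq2, the 6-library fits or the fits with libraries left out. Their counts show only how far a result depends on the method.

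Among the 63 other pathway genes, 54 were called for P0 against E13.5, and 44 to 55 with 1 library left out. E15.5 against E14.5 gave 13, 7 to 15 with 1 library left out, of which 7 on leaving out E14.5 replicate 1 and 8 on leaving out E14.5 replicate 2, and 25 of 59 with 6 libraries. E16.5 against E15.5 gave 2. This became 26 with DESeq2, 4 at a mean of at least 1 CPM and 0 with 6 libraries. With 1 library left out it was 0 to 8: leaving out E16.5 replicate 3 gave 8, E15.5 replicate 1 gave 1, and E16.5 replicate 1 or E15.5 replicate 2 or 3 gave 0. P0 against E16.5 gave 0, 4 with DESeq2, and 0 to 2 with 1 library left out, with 2 reached without E16.5 replicate 1 or P0 replicate 3. E14.5 against E13.5 gave 0, and 1 with DESeq2. Over the 5 stages 56 were called, and 48 to 57 with 1 library left out. With the replicate number as a block, E14.5 against E13.5 gave 1, P0 against E13.5 gave 52 and the 5 stages 50. Upper-quartile scaling moved the all-gene median for E15.5 against E14.5 from 0.03 to 0.16 in log2 fold change, with 3424 higher and 2007 lower calls in place of 2803 and 2970. Depth limits Adipoq, Plin1 and Ucp1 before E16.5, where many values rest on under 20 counts.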
